A study of Mus musculus with 13 samples.

Results

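Maturation of FL-cDC2s was examined by comparing CD83+ with CD83- cells of the same gate, in 4 of the 13 RNA-seq libraries of the series. FL-cDC2s are conventional type 2 dendritic cells (cDC2s) grown from mouse bone marrow with FLT3L, the growth factor that drives cDC development. The 2 libraries of CD115- CX3CR1- CD83- cDC2s are called immature FL-cDC2s, and the 2 libraries of CD115- CX3CR1- CD83+ cDC2s are called mature FL-cDC2s. The libraries were chosen by these sort labels alone, and of 24532 genes in the tables, 13242 had enough reads to be tested.

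All 4 libraries came from bone marrow of wild-type C57BL/6 mice aged 8 to 14 weeks, cultured for 8 to 10 days with 10 μg/ml of FLT3L. No maturation stimulus was named for these sorted cells, so mature and immature cells were taken from the same kind of culture. Both subsets were sorted from cells with high levels of MHC class II in the cDC2 gate (CD11c+ B220- CD24 low or negative CD172α+) after exclusion of CD115+ CX3CR1+ cells, which the study calls non-DCs. The RNA of each subset was extracted 2 times. Neither the labels nor the methods tie an extraction to a culture or an animal, so the p-values rest on the spread between libraries that may be technical repeats. CD83 was the sort marker, so its transcript is not a finding. Cd83 was at 164 and 271 FPKM in immature and 3721 and 3888 FPKM in mature FL-cDC2s.

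An immature dendritic cell samples its surroundings with uptake and pattern receptors and processes what it takes up. A mature one has left this task behind, carries peptide on MHC molecules at its surface, crawls toward lymphatic vessels and shows T cells costimulatory and inhibitory signals. The change also reaches the cytoskeleton, lipid and sugar metabolism, protein synthesis and survival. The values below concern these functions rather than the familiar maturation markers, NF-κB and cell cycle genes.

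The 4 libraries held between 51098324 and 63897262 reads counted in genes. The sorted stage was checked against markers. Clec10a, a lectin of immature cDC2s, was at 49.4 and 44.2 FPKM in the immature libraries and at 0 and 0.0704 in the mature ones, whereas Ccr7, the receptor that guides mature dendritic cells to lymph nodes, was at 18.7 and 32.9 and at 6939.6 and 10488 FPKM. All 14 mature DC markers listed rose, while of 16 cDC2 markers listed 12 fell and 2 rose (median log2 fold change -4.02, summed level 1455 and 1293 FPKM in immature and 385 and 287 in mature FL-cDC2s), and all 30 cell cycle genes listed fell. Cd83, the sort marker, is itself among the mature DC markers listed, and the lists were written with earlier results of these data known. These counts are therefore no independent check of the stage. The 25 macrophage and monocyte genes listed summed to 1456 and 2740 FPKM in immature and to 204 and 251 in mature FL-cDC2s, and 20 of the 24 tested fell. Immature replicate 2 thus held more of these transcripts than replicate 1 (Apoe 10.6 and 131 FPKM, C1qb 1.12 and 16.6 FPKM). In bulk RNA, fewer cells of a type and less RNA per cell cannot be told apart.

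Of the 13242 genes tested with edgeR's quasi-likelihood test, 46.5% passed at a Benjamini-Hochberg adjusted p under 0.05, which is the threshold used throughout. 22.5% were higher and 24% were lower in mature FL-cDC2s. With the added condition of at least a 4-fold change, 9.88% were higher and 12.4% lower. These shares are the background for every list below. Positions are those of RefSeq genes in GRCm38.p6, the assembly behind mm10. Levels are the authors' FPKM, given as replicates 1 and 2 of immature and then of mature FL-cDC2s, and a fold change is the fitted one after TMM scaling. Scaling by library size alone moved the median change over the genes tested from 0 (log2) to -0.40 and gave 2033 genes higher and 4473 lower, so ratios of FPKM lie below the fitted folds by about this amount.

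**Figure D1:**
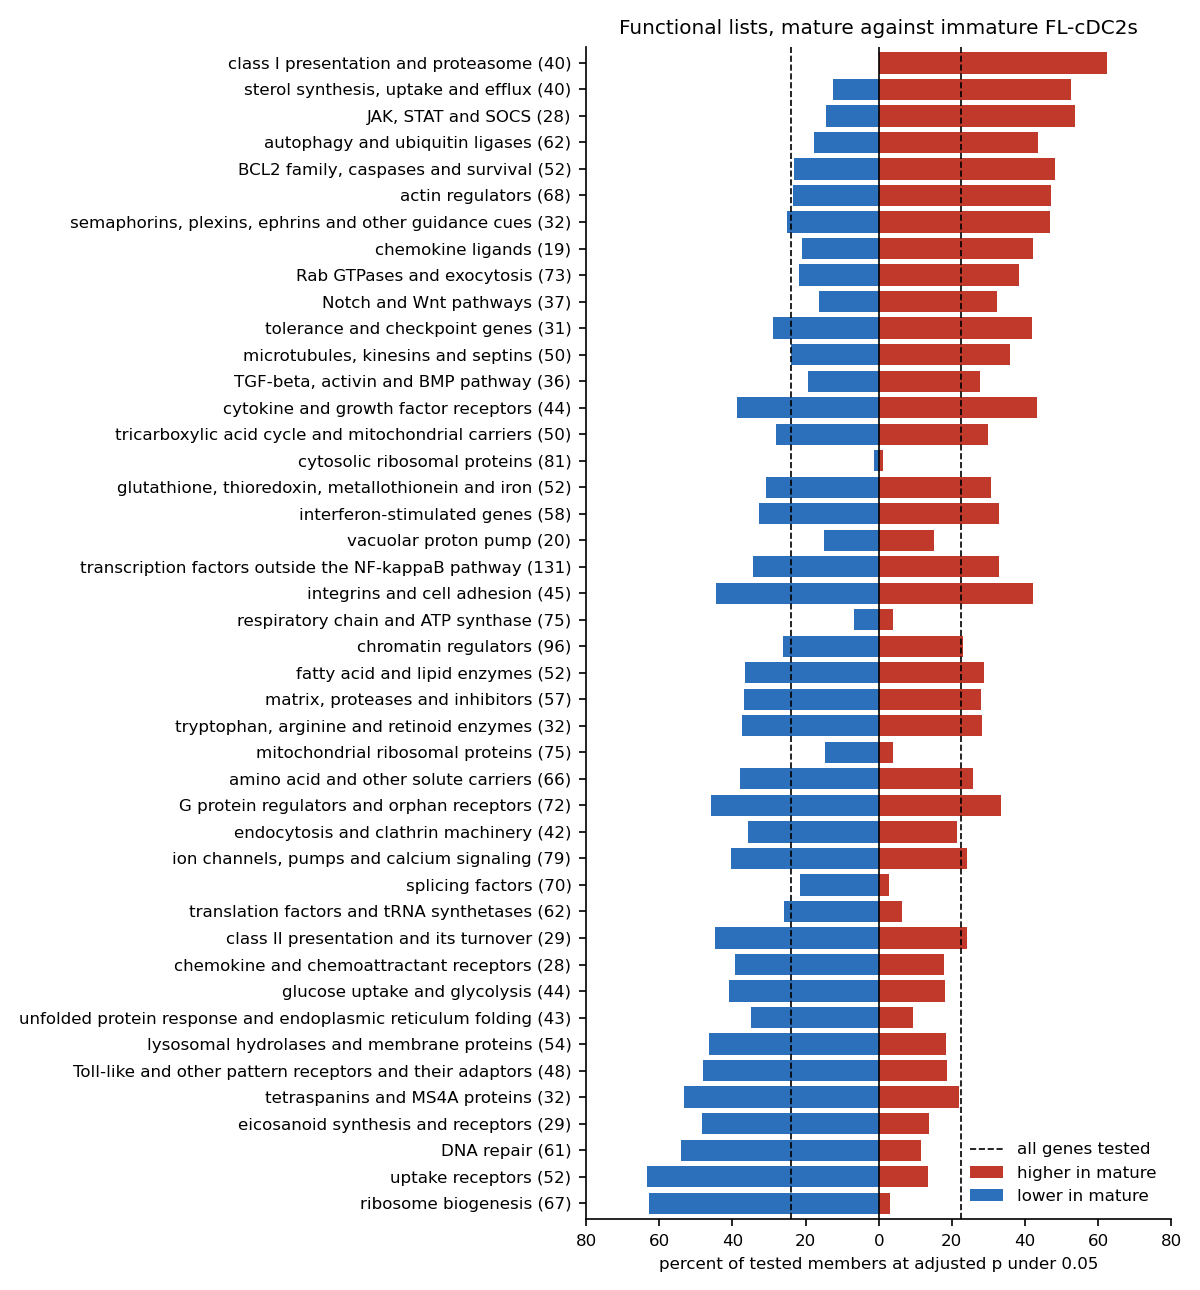
Functional gene lists in mature against immature FL-cDC2s (2 libraries each). Bars give the percent of the tested members of each list that were higher (right) or lower (left) at an adjusted p under 0.05, with the number of members tested beside the name, and dashed lines mark the 22.5% and 24% of all genes tested. Uptake receptors reached 63.5% lower and class I presentation 62.5% higher.

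Receptors for uptake had the lowest median of all functional lists. Of 52 tested, 33 fell and 7 rose, with a median log2 fold change of -4.37 against 0 over all genes, and 30 of the 33 fell by at least 4-fold. The C-type lectin Cd209a, the mouse homolog of DC-SIGN (Entrez gene 170786, chromosome 8 from 3743395 to 3748984), fell from 146 and 162 to 0.283 and 0.206 FPKM. Clec4a4, which carries the inhibitory receptor DCIR2, fell from 115 and 96.2 to 2.69 and 1.79 FPKM. Clec4n, the fungal mannan receptor Dectin-2, fell from 28.9 and 39.7 to 1.13 and 1.395 FPKM. All of these lectins were lower in both mature libraries than in either immature one. Among Fc receptors, the inhibitory IgG receptor Fcgr2b fell from 36.9 and 41.3 to 0.622 and 0.264 FPKM, a log2 change of -5.99 ± 0.39 (SE) with an adjusted p of 1.85e-05, and the signaling chain Fcer1g fell from 413 and 271 to 70.8 and 102 FPKM. The transferrin receptor Tfrc fell from 23.4 and 33.4 to 0.524 and 0.254 FPKM, and Scarb1, a receptor of high-density lipoprotein, fell from 62.3 and 68.05 to 3.51 and 3.18 FPKM.

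A few receptors rose. Ly75, the endocytic receptor DEC-205, rose from 0.688 and 1.14 to 50.96 and 29.4 FPKM, which was 58.1-fold, and Lrp8, a receptor of reelin and apolipoprotein E, rose from 5.69 and 8.61 to 41.5 and 29.2 FPKM. Clec7a, the β-glucan receptor Dectin-1, did not pass, at 8.94 and 20.9 FPKM in immature and 17.2 and 32.3 in mature FL-cDC2s, adjusted p = 0.0783. Several uptake receptors are also used by macrophages, and Fcgr3 (5.66 and 27.3 FPKM in the immature libraries) and Msr1 (1.44 and 8.26) were higher in immature replicate 2, the library with more macrophage transcripts. Without that library, 29 uptake receptors were lower and 7 higher, and without mature replicate 1, 4 were higher. The part of macrophage transcripts in the fall was not tested.

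Most of the named immune receptors of the CD300 and Siglec families fell to about 1 FPKM or less, with Siglecg as the exception. Cd300a, an inhibitory receptor for phosphatidylserine and phosphatidylethanolamine, fell from 107 and 96.4 to 0.9601 and 0.771 FPKM. Cd300e, an activating member, fell from 33.6 and 33.5 to 0.0497 and 0.0939 FPKM, and Cd300lf fell from 24.6 and 31.5 to 0.0918 and 0.165 FPKM. Cd33 and Cd22, receptors of sialic acid, fell by 304-fold and 217-fold. Cd33 went from 17.9 and 15.9 to 0 and 0.0778 FPKM and Cd22 from 19.4 and 17.9 to 0.112 and 0.0116 FPKM. Siglecg fell less, from 52.9 and 55.3 to 14.7 and 12.8 FPKM, or 2.94-fold. The activating receptor Sirpb1a fell from 93.5 and 72.5 to 1.03 and 0.298 FPKM. In all of these the mature libraries lay below both immature ones, and Siglecg alone did not pass without mature replicate 2 (adjusted p = 0.06003).

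**Figure D2:**
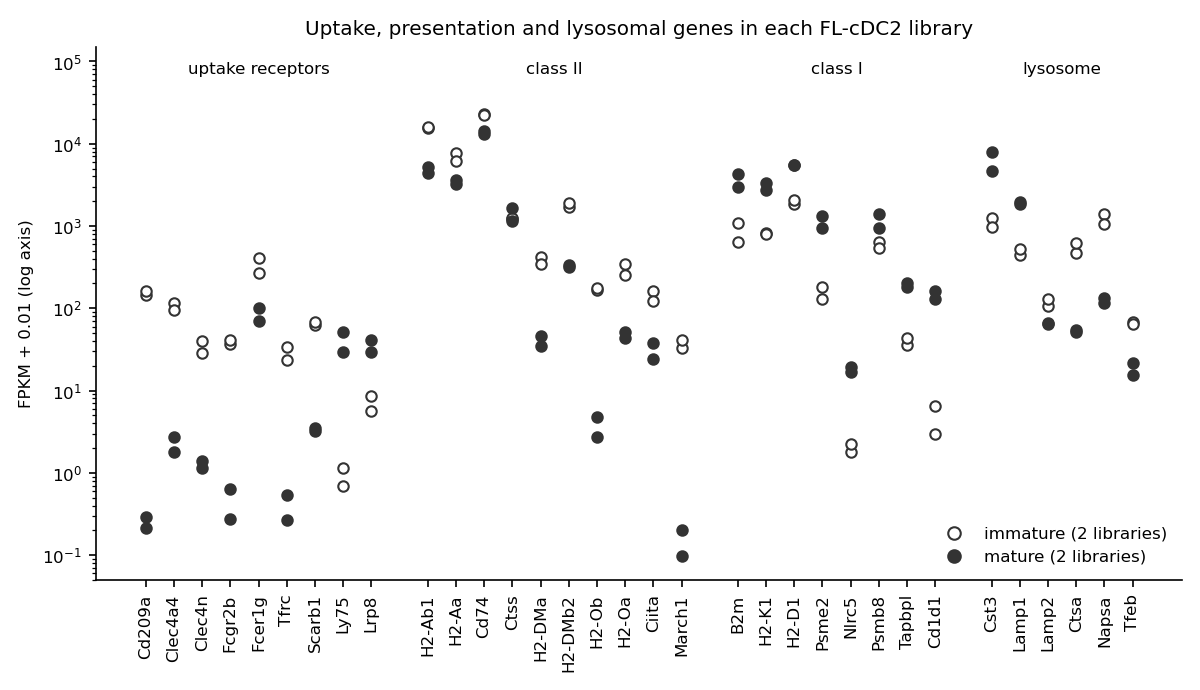
FPKM of uptake, class II, class I and lysosomal genes in each library on a log axis, with open circles for the 2 immature and filled circles for the 2 mature FL-cDC2 libraries, and 0.01 added so that 0 can be drawn. Cd209a, Clec4a4, Clec4n and the Fc receptors were lower in the mature libraries, whereas Ly75, Lrp8 and the class I genes were higher. Most class II genes shown were lower by different degrees.

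MHC class II and class I transcripts moved apart. Of 29 class II genes tested, 13 fell and 7 rose (median -0.61), whereas of 40 class I and proteasome genes 25 rose and none fell (median 0.72). With library size alone the class I counts were 13 higher and 4 lower, and those of class II 5 and 16. Without mature replicate 2, 16 class I genes were higher. The whole class II list made up 12.1% ± 0.0812 of all FPKM in immature and 6.83% ± 0.155 in mature FL-cDC2s (SD, n = 2), and the class I list 1.81% ± 0.0163 and 4.36% ± 0.204.

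Within class II, the fitted fall was smaller for the chains that hold the peptide than for the named proteins that control loading. H2-Ab1, the β chain of I-A, fell from 15668 and 15824 to 4429 and 5270.4 FPKM, which was 2.43-fold. Its partner H2-Aa did not pass (7692 and 6215 FPKM in immature and 3208 and 3602 in mature FL-cDC2s, adjusted p = 0.05997), nor did the invariant chain Cd74 (23255 and 22487 FPKM in immature and 13136 and 14369 in mature FL-cDC2s, adjusted p = 0.316) or Ctss, the protease that trims it (1213 and 1254 FPKM in immature and 1159.6 and 1644 in mature FL-cDC2s, adjusted p = 0.0785). These calls depended on the method and on the libraries in the fit. H2-Ab1 did not pass in the fit of all 13 libraries (adjusted p = 0.0555). H2-Aa passed as lower with DESeq2 (adjusted p = 0.0101) and with library size alone (0.00553), and Cd74 as lower with library size alone (0.0176). Ctss passed as higher with DESeq2 (adjusted p = 0.0202). All of these transcripts remained abundant in every library. The peptide exchange factor fell more: H2-DMa fell from 424 and 349 to 34.7 and 46.1 FPKM, and H2-DMb2 fell from 1698 and 1901 to 315 and 331 FPKM. The chains of its inhibitor DO fell as well, H2-Ob going from 167 and 178 to 4.701 and 2.71 FPKM, 34.9-fold lower, and H2-Oa from 344 and 253 to 43.7 and 51.6 FPKM, 4.67-fold lower.

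Ciita, the master activator of class II transcription, fell from 163 and 123 to 37.4 and 24.3 FPKM, a log2 change of -1.79 ± 0.25 (adjusted p = 7.43e-04). March1, the ubiquitin ligase that sends surface class II molecules to lysosomes (Entrez gene 72925, chromosome 8 from 65618009 to 66472841), fell from 32.4 and 40.9 to 0.193 and 0.0872 FPKM, a log2 change of -7.56 ± 0.40 (adjusted p = 8.52e-06). CD83 is known to oppose March1. The related ligase March8 rose only at low levels, from 0.406 and 1.03 to 2.02 and 1.33 FPKM, and not without mature replicate 1 (adjusted p = 0.0877), and March5, a mitochondrial ligase of the same family, rose from 15.5 and 15.8 to 42.3 and 52.9 FPKM. So of 5 MARCH ligases tested, March1 was the one that fell and the other 4 rose.

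Class I genes rose at several steps between proteasome and surface. B2m, the light chain shared by class I molecules, rose from 1074 and 641 to 2972 and 4294 FPKM, and the heavy chains H2-K1 and H2-D1 rose 4.97-fold and 3.77-fold, from 818 and 801 to 2716 and 3297 FPKM and from 1838 and 2043 to 5509 and 5454 FPKM. Psme2, a subunit of the proteasome activator PA28, rose from 182 and 128 to 934 and 1305 FPKM. Nlrc5, the transactivator of class I genes, rose from 1.77 and 2.22 to 19.2 and 16.9 FPKM. Of the catalytic subunits, the immunoproteasome forms rose: Psmb8 rose from 630.3 and 541 to 955 and 1411 FPKM, Psmb9 rose from 206 and 134 to 237 and 372 FPKM and Psmb10 rose from 86.1 and 58.1 to 82.5 and 131 FPKM, whereas the standard forms Psmb5 and Psmb6 did not pass (adjusted p = 0.529 and 0.345). Psmb10 overlapped between groups in FPKM and Psmb7, the remaining standard form, rose 1.88-fold. Psmb7, Psmb9 and Psmb10 did not pass with library size alone (adjusted p = 0.244, 0.0668 and 0.156), nor without mature replicate 2 (0.176, 0.0783 and 0.145).

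Tapbpl, the peptide editor TAPBPR, rose from 35.9 and 43.1 to 183 and 204 FPKM, more than tapasin itself (Tapbp, 2.63-fold). The transporters Tap1 and Tap2 rose 1.698-fold and 1.62-fold, but not with library size alone (adjusted p = 0.142 and 0.27) or without mature replicate 1 (0.0818 and 0.154). Cd1d1, which presents lipids to NKT cells, rose from 2.95 and 6.53 to 162 and 129 FPKM, or 40.4-fold. H2-Q6 went from 5.28 and 0 to 342 and 338 FPKM, but reads of the H2 genes may be shared between near-identical copies. The chaperones Calr and Pdia3 did not pass (adjusted p = 0.0946 and 0.0936).

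Lysosomal genes fell in number while a few abundant ones rose. Of 54 tested, 25 fell and 10 rose (median -0.81). Their summed level went from 9289.9 and 9749 to 11954 and 15784 FPKM, a rise that rested on Cst3, since without it the sum went from 8031 and 8785 to 7326 and 7947 FPKM. Cst3, the cysteine protease inhibitor cystatin C, was the most abundant of those that rose, as it rose from 1259 and 964 to 4628 and 7838 FPKM. Lamp1, the main lysosomal membrane protein, rose from 446 and 522 to 1839 and 1969 FPKM, while Lamp2 did not pass (108 and 130.4 FPKM in immature and 65.6 and 65.1 in mature FL-cDC2s, adjusted p = 0.1101). With library size alone Lamp2 passed as lower (adjusted p = 0.006). Cathepsin A (Ctsa) fell from 475 and 618 to 51.6 and 54.1 FPKM, and napsin A (Napsa) fell from 1388 and 1062 to 115 and 135 FPKM. Their folds were 7.804 and 7.3001. Tfeb, a transcription factor of lysosome formation, fell from 68.98 and 64.3 to 21.6 and 15.5 FPKM.

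Niemann-Pick proteins parted, as the soluble cholesterol carrier Npc2 rose from 47.8 and 35.3 to 95.2 and 147 FPKM and its membrane partner Npc1, at lower levels, fell from 8.72 and 5.63 to 1.45 and 2.497 FPKM. Subunits of the vacuolar proton pump showed no common direction, with 3 of 20 higher and 3 lower.

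Pattern recognition receptors fell more often than they rose, with 23 of 48 lower and 9 higher (median -0.59). Tlr2, which reads bacterial lipoproteins, fell from 49.9 and 63.6 to 8.74 and 7.05 FPKM. Its adaptor Myd88 fell from 169 and 155 to 36.3 and 36.2 FPKM, and Unc93b1, the chaperone of endosomal Toll-like receptors, fell from 616 and 734 to 217 and 198 FPKM. Cd14 fell from 34.1 and 70.6 to 3.24 and 5.21 FPKM, with the higher level in immature replicate 2. The lipopolysaccharide receptor was split. Ly96, which is MD-2, rose from 1.48 and 1.08 to 16.2 and 18.3 FPKM, 17.6-fold, while its partner Tlr4 fell from a low level, from 3.03 and 2.95 to 0.0368 and 0.0234 FPKM. Inflammasome genes were split in the same manner: the pore former Gsdmd rose from 49.5 and 42.7 to 125 and 111 FPKM and Il1b rose from 78.6 and 85.5 to 214 and 277 FPKM, but the adaptor Pycard fell from 60.8 and 42.6 to 8.51 and 13.4 FPKM and the DNA sensor Aim2 fell from 24.1 and 20.96 to 5.89 and 2.67 FPKM.

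Chemokine ligands other than Ccl22 changed sides. Cx3cl1, the membrane-bound ligand of CX3CR1 (Entrez gene 20312, chromosome 8 from 94772180 to 94782427), was close to absent before maturation (0.03497 and 0.177 FPKM) and reached 194 and 129.6 FPKM afterwards, a log2 change of 10.91 ± 0.65 (SE, adjusted p = 1.35e-05). Ccl5, which attracts T cells, rose from 68.6 and 38.8 to 1104 and 1776 FPKM, and Cxcl16, the ligand of CXCR6, rose from 47.3 and 65.6 to 830.0 and 919 FPKM. Ccl17, which shares the receptor CCR4 with Ccl22, had 0 reads in both immature libraries and was at 10.4 and 20.7 FPKM in mature ones. The inflammatory ligands Ccl3 and Ccl4 fell: Ccl3 fell from 37.4 and 34.3 to 2.502 and 1.67 FPKM and Ccl4 fell from 29.2 and 23.3 to 1.26 and 1.52 FPKM. Of 19 ligands tested, 8 rose and 4 fell.

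Receptors that answer inflammatory chemokines were among those that fell. Ccr1, a receptor of CCL3 and CCL5, fell from 84.4 and 75.02 to 0.311 and 0.251 FPKM, 209-fold. Ccr2 fell from 65.4 and 80.8 to 1.22 and 0.981 FPKM. The leukotriene B4 receptor Ltb4r1 fell from 33.2 and 26.9 to 0.3597 and 0.166 FPKM. Among 28 chemoattractant receptors 11 fell and 5 rose. Gpr183, which follows oxysterol gradients in lymphoid tissue, rose from 109 and 127 to 210.5 and 166 FPKM. An enzyme on either side of its ligand rose too, Ch25h, which makes 25-hydroxycholesterol, from 0.0713 and 0.2996 to 12.7 and 9.35 FPKM and Hsd3b7, which degrades the ligand, from 19.5 and 22.7 to 85.4 and 88.9 FPKM. P2ry10, a receptor of lysophosphatidylserine, rose from 22.8 and 32.6 to 153 and 166 FPKM.

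Guidance cues known from the nervous system rose more often than they fell, 15 against 8 of 32 (median 1.18), and 11 of the 15 by at least 4-fold. Without mature replicate 2, 5 were lower. Efna2, an ephrin ligand, rose from 0.226 and 0.264 to 44.9 and 44.4 FPKM, and Sema6d, a membrane-bound semaphorin, rose from 1.37 and 1.71 to 22.3 and 17.9 FPKM. The semaphorin receptors Plxnc1 and Plxnb2 parted, since Plxnc1 rose from 46.2 and 40.3 to 138 and 118 FPKM and Plxnb2 fell from 74.6 and 48.96 to 8.63 and 7.95 FPKM. The neuropilins, co-receptors of semaphorins and VEGF, moved in opposite directions: Nrp2 rose from 3.22 and 3.69 to 51.2 and 38.1 FPKM and Nrp1 fell from 40.01 and 37.3 to 0.845 and 0.584 FPKM. Their log2 changes were 4.14 ± 0.24 and -5.34 ± 0.26 (SE), with adjusted p of 1.29e-05 and 7.04e-06. Sema4a rose from 54.6 and 71.3 to 171 and 140.3 FPKM, and Sema4d, a ligand of plexin B proteins, fell from 101 and 72.8 to 7.77 and 4.72 FPKM.

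Adhesion genes were divided between the integrins, of which most of the leukocyte types fell, and their counter-receptors. The β2 chain Itgb2 fell from 422 and 514 to 17.4 and 15.97 FPKM, and its partners fell with it: Itgam (CD11b) fell from 121 and 115 to 2.46 and 0.916 FPKM and Itgax (CD11c, used in the gate) fell from 73.6 and 49.2 to 2.27 and 1.94 FPKM. The β7 chain Itgb7 fell from 665 and 599 to 34.8 and 30.9 FPKM. In contrast the β1 chain Itgb1 rose from 117 and 148 to 441 and 343 FPKM. The log2 changes of Itgb2, Itgb7 and Itgb1 were -4.40 ± 0.24, -3.85 ± 0.20 and 1.97 ± 0.25 (SE). Icam1, the ligand of β2 integrins, rose from 37.5 and 50.3 to 548 and 423 FPKM, and Vcam1, the ligand of α4β1, went from 0.0284 and 0.667 to 30.3 and 25.97 FPKM.

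The adhesion molecules E-cadherin (Cdh1), Pecam1 and Cadm1 fell, Cdh1 from 47.5 and 67.1 to 0.614 and 0.193 FPKM, Pecam1 from 14.7 and 14.4 to 0.06703 and 0.0634 FPKM and Cadm1 from 91.5 and 81.8 to 7.82 and 6.14 FPKM. The sheddase Adam8 rose from 14.6 and 23.95 to 351 and 282 FPKM. Of 45 adhesion genes, 19 rose and 20 fell, so the list as a whole had no direction. Dscaml1, a homophilic adhesion molecule of neurons, was among the 30 largest rises, from 0.0419 and 0.0102 to 43.9 and 38.6 FPKM, whereas the related Dscam fell from 11.97 and 8.94 to 2.59 and 1.53 FPKM.

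Actin regulators rose, 32 of 68 tested against 16 lower (median 0.76). The summed share of FPKM of all 72 listed went from 4.96% ± 0.566 to 7.29% ± 0.494 (SD, n = 2). β-actin itself (Actb), which is not in the list, rose from 5809.6 and 3257 to 11116 and 14529 FPKM and the actin monomer buffer Tmsb4x rose from 7968 and 4799 to 10469.7 and 15024 FPKM, and these were the 2 most abundant transcripts of mature FL-cDC2s among those that changed at least 2-fold, although Tmsb4x did not pass without mature replicate 2 (adjusted p = 0.0703). The class I myosin Myo1g rose from 54.4 and 61.6 to 916 and 722 FPKM, and tropomyosin 1 (Tpm1) rose from 30.8 and 28.7 to 269 and 262 FPKM. Marcks and Marcksl1, which bind actin at the membrane, rose 6.19-fold and 16.1-fold, from 81.1 and 49.8 to 292 and 310.3 FPKM and from 156 and 103 to 1526 and 1566 FPKM. Swap70, a regulator of membrane ruffling, rose from 116 and 147 to 639 and 417 FPKM.

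The fall was concentrated in other proteins of the same kind. Gelsolin (Gsn), which severs and caps filaments (Entrez gene 227753, chromosome 2 from 35256359 to 35307902), fell from 1222 and 1452 to 12.5 and 10.6 FPKM, a log2 change of -6.45 ± 0.27 (SE) with an adjusted p of 6.45e-06. Myo1f, a second class I myosin, fell from 208 and 297 to 5.24 and 1.84 FPKM, opposite to Myo1g. Eps8, a capping protein, fell from 24.1 and 28.2 to 0.789 and 0.621 FPKM, opposite to its relative Eps8l2, which had 0 reads in both immature libraries and was at 78.04 and 77.5 FPKM in mature ones. Anxa1 and Anxa3, annexins that bind membranes in the presence of calcium, likewise parted: Anxa1 fell from 219.7 and 235 to 7.07 and 9.97 FPKM and Anxa3 rose from 2.102 and 6.46 to 724 and 859 FPKM.

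**Figure D3:**
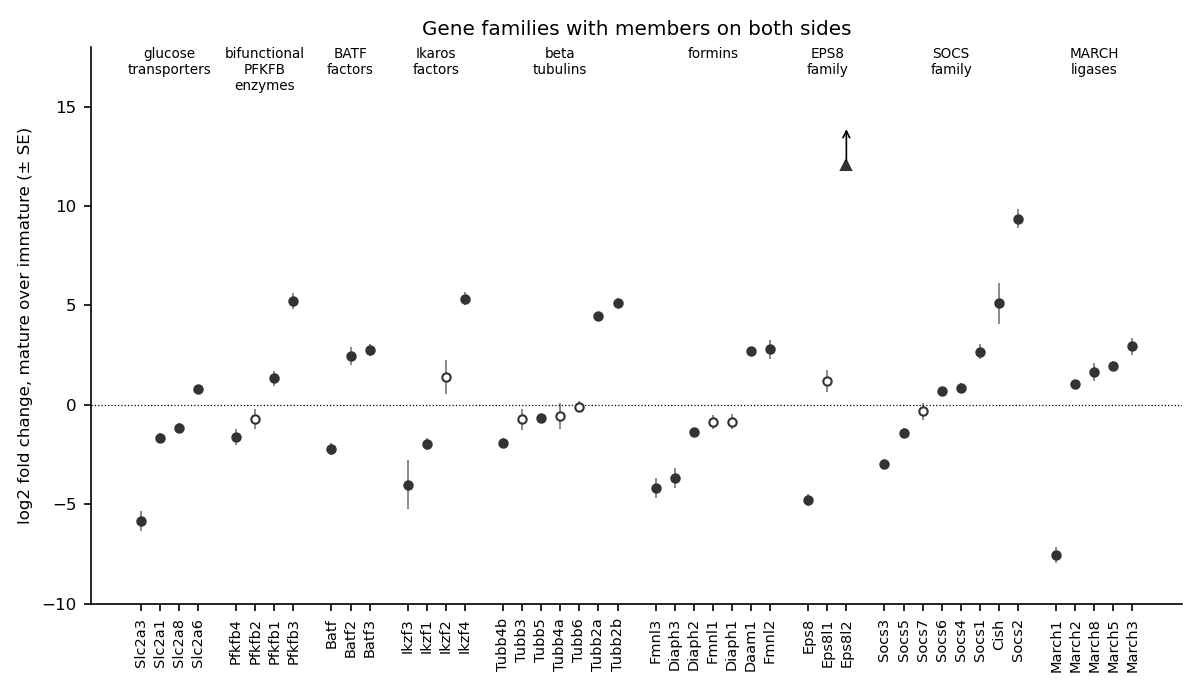
Log2 fold change (mature over immature, ± SE of the fit) of the members of 9 gene families in which some rose and some fell. Filled points passed at an adjusted p under 0.05 and open points did not, and the arrow marks Eps8l2, drawn at its lower bound because immature libraries held 0 reads. Within the SOCS family Socs2 lay at 9.36 and Socs3 at -2.97, and March1 lay at -7.56.

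Among the small GTPases that shape the cytoskeleton, Rac2, the form of blood cells, fell from 247 and 193 to 28.8 and 28.8 FPKM, whereas Rac1 and Cdc42, found in all cells, did not pass (309 and 239 FPKM in immature and 275 and 271 in mature FL-cDC2s, adjusted p = 0.111; Cdc42 adjusted p = 0.0531). The kinase Pak1, their effector, fell from 193 and 209.8 to 19.9 and 17.5 FPKM. Regulators split: Arhgap15 fell from 88.1 and 111 to 0.835 and 1.003 FPKM, and Arhgap22 rose from 19.7 and 23.2 to 170.1 and 154 FPKM, while Arhgap28 rose from 0.628 and 0.631 to 40.3 and 28.9 FPKM.

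Tubulins changed isotype. Among β tubulins Tubb2a rose from 14.98 and 16.02 to 231 and 282 FPKM and Tubb2b rose from 4.702 and 4.14 to 94.97 and 135 FPKM, whereas Tubb4b fell from 179 and 167 to 29.3 and 39.8 FPKM and Tubb5 fell from 324 and 258 to 116 and 158 FPKM. Tuba1a rose from 263 and 247 to 878 and 1216 FPKM, and the more abundant Tuba1b fell from 982 and 785 to 344 and 474 FPKM. Tubb5 and Tuba1b did not pass without mature replicate 1 (adjusted p = 0.193 for each) nor in the fit of the 4 FL-cDC2 libraries (0.0706 and 0.0698). Reads of near-identical tubulins may be shared. The septin Sept3 fell from 14.7 and 11.96 to 0.1399 and 0.0582 FPKM. In the whole list of 50 microtubule genes 18 rose and 12 fell, which library size alone turned to 11 and 14, and Tubb5 and Tuba1b are also made more in dividing cells.

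Cytokine receptors changed in kind rather than in number, with 19 of 44 higher and 17 lower (16 and 17 with library size alone). Il15ra, which presents IL-15 in trans to T and NK cells, rose from 2.94 and 4.14 to 158 and 178 FPKM. Il2ra (CD25) rose from 0.252 and 0.277 to 33.8 and 22.6 FPKM, while the shared γ chain Il2rg did not pass (520.3 and 669 FPKM in immature and 537 and 566 in mature FL-cDC2s, adjusted p = 0.296). Of the receptors of the TNF family, Tnfrsf9 (4-1BB) rose from 4.51 and 6.53 to 161 and 192 FPKM and Tnfrsf4 (OX40) rose from 0.744 and 0.884 to 123 and 154 FPKM. Csf2rb, the β chain of the GM-CSF receptor, rose from 45.6 and 40.4 to 152 and 139 FPKM.

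Receptors of interferons and of inflammatory cytokines had no common direction. Ifngr1 fell from 504 and 652 to 65.9 and 65.6 FPKM, but its partner Ifngr2 rose 1.699-fold (not with library size alone, adjusted p = 0.1125), from 114 and 107 to 139 and 142 FPKM. Ifnar2 fell from 79.6 and 73.7 to 16.7 and 16.7 FPKM, and its partner Ifnar1 did not pass (20.95 and 30.1 FPKM in immature and 22.3 and 15.9 in mature FL-cDC2s, adjusted p = 0.987). The IL-1 decoy receptor Il1r2 fell from 175 and 221 to 2.303 and 3.05 FPKM, 55.3-fold. Tnfrsf1a, TNF receptor 1, fell from 55.97 and 36.3 to 5.88 and 5.19 FPKM, whereas Tnfrsf1b, TNF receptor 2, rose from 34.6 and 41.02 to 227 and 140.3 FPKM. Within each of these receptor pairs the members moved unequally. Flt3 and Kit, receptors of growth factors, did not pass (adjusted p = 0.319 and 0.792).

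Downstream, genes of JAK, STAT and SOCS proteins rose in 15 of 28 cases and fell in 4 (median 0.66). Stat4, which transmits IL-12 signals, rose from 24.3 and 25.8 to 215 and 240.4 FPKM, and Stat3 rose from 129.8 and 144 to 428 and 295 FPKM. Among the inhibitors, Socs2 rose from 0.365 and 0.705 to 265 and 266 FPKM, and Socs3 fell, from 70.6 and 63.8 to 6.81 and 6.01 FPKM. The log2 changes of Socs2 and Socs3 were 9.36 ± 0.49 and -2.97 ± 0.24 (SE), with adjusted p of 8.00e-06 and 4.19e-05. Of 8 SOCS genes 5 rose, 2 fell and 1 did not pass. The phosphatase Ptpn6 (SHP-1), which many of the lost inhibitory receptors recruit, fell from 829 and 902 to 121 and 113 FPKM. Tgfbr2, the type II receptor of TGF-β, fell from 26.2 and 21.3 to 0.383 and 0.307 FPKM, while Tgfbr1 did not pass (adjusted p = 0.105).

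Genes of tolerance and of immune checkpoints rose in 13 of 31 cases and fell in 9 (median 0.48), and with library size alone 12 rose and 11 fell. Il4i1, an enzyme that degrades aromatic amino acids, rose from 45.2 and 39.9 to 1232 and 1089 FPKM, and Arg2, arginase 2, rose from 0.371 and 1.14 to 65.5 and 67.1 FPKM. Aldh1a2, which makes retinoic acid, rose from 0.4504 and 0.819 to 22.6 and 22.7 FPKM. Kmo, an enzyme of kynurenine metabolism, moved the other way, from 201 and 244 to 1.48 and 0.717 FPKM, a 152-fold fall. In the separate list of 32 tryptophan, arginine and retinoid enzymes, 9 rose and 12 fell (median -0.05), and with library size alone 9 rose and 15 fell. Cd200, a ligand that restrains myeloid cells, rose from 4.62 and 6.905 to 215 and 186 FPKM, whereas its receptor Cd200r1 fell from 33.1 and 40.7 to 0.332 and 0.316 FPKM. The ligand was thus held by the mature cells and the receptor by the immature ones.

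Adenosine receptors changed type, since Adora2a rose from 0.422 and 0.229 to 97.2 and 81.6 FPKM and Adora2b fell from 8.997 and 11.1 to 0.998 and 0.582 FPKM. Entpd1 (CD39), which degrades ATP on the way to adenosine, fell from 23.3 and 25.4 to 0.256 and 0.1301 FPKM. Cd274 (PD-L1) rose from 11.7 and 17.8 to 58.3 and 51.1 FPKM and the death receptor Fas rose from 2.47 and 2.68 to 99.3 and 122 FPKM. Havcr2 (TIM-3) fell from 27.3 and 32.1 to 1.81 and 1.01 FPKM, and so did its ligand galectin 9, with Lgals9 going from 67.7 and 72.1 to 3.41 and 4.45 FPKM. Galectin 3 (Lgals3) fell from 642 and 644 to 56.3 and 80.1 FPKM. Among the genes of this group Il10 had 0 reads in all 4 libraries, which at this depth allows up to 3 reads per library.

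Eicosanoid genes fell, 14 of 29 against 4 higher (median -1.65). The enzymes that begin leukotriene synthesis were among those that fell. Alox5 (5-lipoxygenase) stood at 7.38 and 10.9 FPKM before maturation and had 0 reads in both mature libraries, which as a share of all reads was at least 546-fold lower. Its activator Alox5ap fell from 238 and 188 to 2.601 and 3.29 FPKM. Ltc4s, which joins glutathione to leukotriene A4, nevertheless rose from 0.516 and 0.307 to 17.2 and 28.7 FPKM. Of the prostaglandin enzymes, Hpgds fell from 57.6 and 62.9 to 0.387 and 0.589 FPKM and Hpgd, which inactivates prostaglandins, fell from 101 and 77.9 to 0.112 and 0.553 FPKM. Ptgs2 (COX-2) did not pass (4.27 and 14.4 FPKM in immature and 4.38 and 7.54 in mature FL-cDC2s, adjusted p = 0.732).

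Receptors of prostaglandin E2 were divided. Ptger4 (EP4) rose from 66.7 and 103 to 239.7 and 226 FPKM, whereas Ptger3 (EP3) fell from 80.7 and 84.03 to 1.23 and 0.627 FPKM. The leukotriene receptor Cysltr1 fell from 59.7 and 76.5 to 0.396 and 0.595 FPKM. EP4 raises cAMP and EP3 lowers it. Other genes of cAMP signaling also changed type: adenylate cyclase Adcy6 rose from 0.0352 and 0.03799 to 20.3 and 20.4 FPKM and Adcy7 fell from 29.3 and 24.4 to 3.63 and 2.35 FPKM, and the phosphodiesterase Pde4b rose from 25.5 and 33.8 to 177 and 219 FPKM. Ramp3, a partner of receptors for adrenomedullin and calcitonin gene-related peptide, was among the 30 largest rises, from 0.0631 and 0.446 to 229 and 348 FPKM.

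Ion channel and calcium genes fell more often than they rose, 32 against 19 of 79 (median -0.53). The calcium pump of the endoplasmic reticulum Atp2a3 fell from 59.3 and 52.04 to 0.553 and 0.2703 FPKM, and the calcium-gated potassium channel Kcnn4 fell from 91.5 and 83.5 to 2.93 and 2.01 FPKM. Nfatc1, a transcription factor freed by calcineurin, fell from 54.3 and 64.2 to 7.16 and 4.9001 FPKM. Cacnb3, a β subunit of voltage-gated calcium channels, rose from 1.64 and 4.24 to 1557 and 1264 FPKM. Chloride channel proteins parted: Clic4 rose from 133 and 192 to 2532 and 1648 FPKM and Clic1 fell from 524 and 427 to 119 and 137 FPKM. ATP-gated channels did so as well, P2rx4 going from 48.4 and 70.6 to 110.5 and 114 FPKM and P2rx7, at lower levels, from 5.89 and 5.03 to 0.07196 and 0.0249 FPKM.

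Regulators of G protein signaling and orphan receptors fell in 33 of 72 cases and rose in 24 (median -0.76). Rgs1, which turns off chemokine receptors, rose from 48.5 and 94.4 to 457 and 623 FPKM, whereas Rgs18 fell from 93.6 and 111 to 1.27 and 0.413 FPKM and Rgs2 fell from 166 and 142 to 19.8 and 30.4 FPKM. The proton-sensing receptor Gpr65 rose from 6.15 and 5.44 to 104 and 119.7 FPKM. The orphan receptor Gpr141 fell from 52.5 and 70.3 to 0.453 and 0.548 FPKM, and Gpr35 fell from 46.98 and 49.2 to 5.85 and 5.24 FPKM.

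Signals of development changed in small numbers. Of 36 genes of the TGF-β, activin and BMP pathways 10 rose and 7 fell, and of 37 genes of the Notch and Wnt pathways 12 rose and 6 fell, whereas with library size alone the balance turned to 8 against 9 and to 9 against 11. Wnt11, a Wnt ligand, rose from 4.67 and 7.98 to 69.4 and 77.7 FPKM. Smurf1, a ubiquitin ligase that acts on SMAD proteins, rose from 7.03 and 7.45 to 46.04 and 31.1 FPKM and Tgif1, a corepressor of SMAD proteins, rose from 22.2 and 20.9 to 73.97 and 83.95 FPKM. Tgfb1, the ligand TGF-β1, fell from 17.8 and 7.59 to 2.18 and 1.62 FPKM, and Hes6, a relative of the Notch targets, fell from 102 and 104 to 38.01 and 45.8 FPKM, which did not pass without mature replicate 1 (adjusted p = 0.0772). Rbpj, the DNA-binding partner of Notch, did not pass (24.4 and 22.03 FPKM in immature and 19.9 and 15.3 in mature FL-cDC2s, adjusted p = 0.945).

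Solute carriers fell in 25 of 66 cases and rose in 17 (median 0.14). Slc29a1, which lets nucleosides cross the membrane, fell from 108 and 139 to 5.78 and 4.19 FPKM, and the organic anion transporter Slco4a1 fell from 35.5 and 57.4 to 0.297 and 0.4103 FPKM. The choline transporter-like proteins parted, since Slc44a1 rose from 15.9 and 20.98 to 164 and 92.8 FPKM and Slc44a2 fell from 109.8 and 115 to 17.4 and 12.5 FPKM. Slc33a1, which brings acetyl-CoA into the endoplasmic reticulum, rose from 5.99 and 9.097 to 104 and 74.5 FPKM. Slc22a23, an orphan transporter, was close to absent in the immature libraries and rose from 0.213 and 0.0847 to 28.9 and 24.1 FPKM.

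Extracellular matrix genes, proteases and their inhibitors had 16 of 57 higher and 21 lower. Osteopontin (Spp1), a secreted matrix protein, fell from 134 and 147 to 8.27 and 6.98 FPKM. The related protease inhibitors Spint1 and Spint2 moved in opposite directions, Spint1 from 99.7 and 111 to 20.1 and 21.7 FPKM and Spint2 from 85.03 and 63.7 to 306 and 443 FPKM, at log2 changes of -1.92 ± 0.19 and 2.76 ± 0.33 (SE). Serpinb6b, an intracellular serpin, rose from 11.5 and 8.97 to 91.8 and 106 FPKM.

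Glucose metabolism changed by isoform. Of 44 genes 18 fell and 8 rose (median -0.29), and without mature replicate 1, 11 fell. The transporter Slc2a3 fell from 114 and 204 to 2.88 and 1.301 FPKM, 57.7-fold, and Slc2a1 fell from 71.9 and 95.7 to 19.6 and 20.4 FPKM, whereas Slc2a6, a lysosomal transporter, rose 1.75-fold (not with library size alone, adjusted p = 0.0799), from 121 and 129 to 159.7 and 167 FPKM. Hexokinase 2 (Hk2) fell from 14.8 and 10.2 to 2.09 and 1.299 FPKM and lactate dehydrogenase A (Ldha) fell from 1293 and 1136 to 389 and 468 FPKM. Pfkfb3, which makes the activator of phosphofructokinase, rose from 11.1 and 14.1 to 463 and 239 FPKM, and Pfkfb4 fell from 13.4 and 17.9 to 5.395 and 2.32 FPKM, which did not pass without immature replicate 2 (adjusted p = 0.0511). Enolase 3 (Eno3) rose from 155 and 139 to 569 and 605 FPKM, while the main form Eno1 did not pass (2361 and 2783 FPKM in immature and 1195 and 1417 in mature FL-cDC2s, adjusted p = 0.0917). Eno1 did pass as lower with DESeq2 (adjusted p = 0.0368) and with library size alone (0.006735). Gapdh did not pass (548 and 351 FPKM in immature and 272 and 413 in mature FL-cDC2s, adjusted p = 0.936).

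Mitochondrial enzymes of the tricarboxylic acid cycle showed breaks at single steps, with 15 of 50 genes higher and 14 lower (10 and 18 with library size alone). Isocitrate dehydrogenases changed compartment, since the cytosolic Idh1 rose from 19.4 and 28.2 to 215 and 154 FPKM and the mitochondrial Idh2 fell from 156 and 136 to 19.97 and 23.9 FPKM. Fumarate hydratase (Fh1) fell from 179.7 and 138 to 12.5 and 14.6 FPKM, and Idh3a fell from 59.1 and 66.1 to 7.34 and 7.69 FPKM. Sdha and Cs did not pass (adjusted p = 0.386 and 0.861). Of 75 genes of the respiratory chain and ATP synthase, 3 were higher and 5 lower, a share below the background in both directions. This does not show that the others were unchanged. With library size alone 1 was higher and 15 were lower. The summed share of FPKM of these 75 genes was 1.19% ± 0.152 in immature and 0.876% ± 0.111 in mature FL-cDC2s (SD, n = 2). Creatine kinase B (Ckb), which buffers ATP, fell from 1139.5 and 768 to 4.72 and 6.096 FPKM, a log2 change of -7.03 ± 0.31 (SE).

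Sterol genes rose, 21 of 40 against 5 lower (median 0.86), and with library size alone 16 were higher and 10 lower. Without mature replicate 1, 8 were lower. Idi1, an isomerase of isoprenoid synthesis, rose from 15.9 and 17.8 to 197 and 156 FPKM. Cyp51, a demethylase of lanosterol, rose from 23.7 and 28.4 to 79.9 and 62.9 FPKM, and Hmgcs1 rose from 25.8 and 29.1 to 76.7 and 45.9 FPKM. Sqle and the regulator Srebf2 did not pass (adjusted p = 0.127 and 0.633). The exporter Abcg1 rose from 6.39 and 5.26 to 19.9 and 22.2 FPKM. The CCAAT box, searched as CCAAT on both strands, was in the promoter windows of 22 of 30 sterol genes (73.3%) against 43% of 10553 tested genes with a window. It was not particular to this list. Lists that fell held it as often, with 26 of 36 genes of the unfolded protein response and endoplasmic reticulum folding (72.2%) and 21 of 24 cell cycle genes (87.5%).

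Iron and glutathione genes included opposite partners. Ferritin light chain (Ftl1) rose from 4000.2 and 3314 to 6588 and 9983 FPKM, whereas the heavy chain Fth1 fell from 2363 and 1712 to 457 and 715 FPKM, a fall that did not pass without mature replicate 1 (adjusted p = 0.0598). Glutathione reductase (Gsr) rose from 36.3 and 44.1 to 133 and 150.2 FPKM and glutathione peroxidase 1 (Gpx1) fell from 844 and 649 to 137 and 149 FPKM. The fatty acid carrier Fabp5 rose from 28.8 and 16.4 to 269 and 348 FPKM, while Lpcat2, an enzyme of platelet-activating factor synthesis, fell from 102 and 139.6 to 14.5 and 14.9 FPKM and Acss1, a mitochondrial acetyl-CoA synthetase, fell from 43.1 and 53.2 to 1.29 and 0.926 FPKM.

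**Figure D4:**
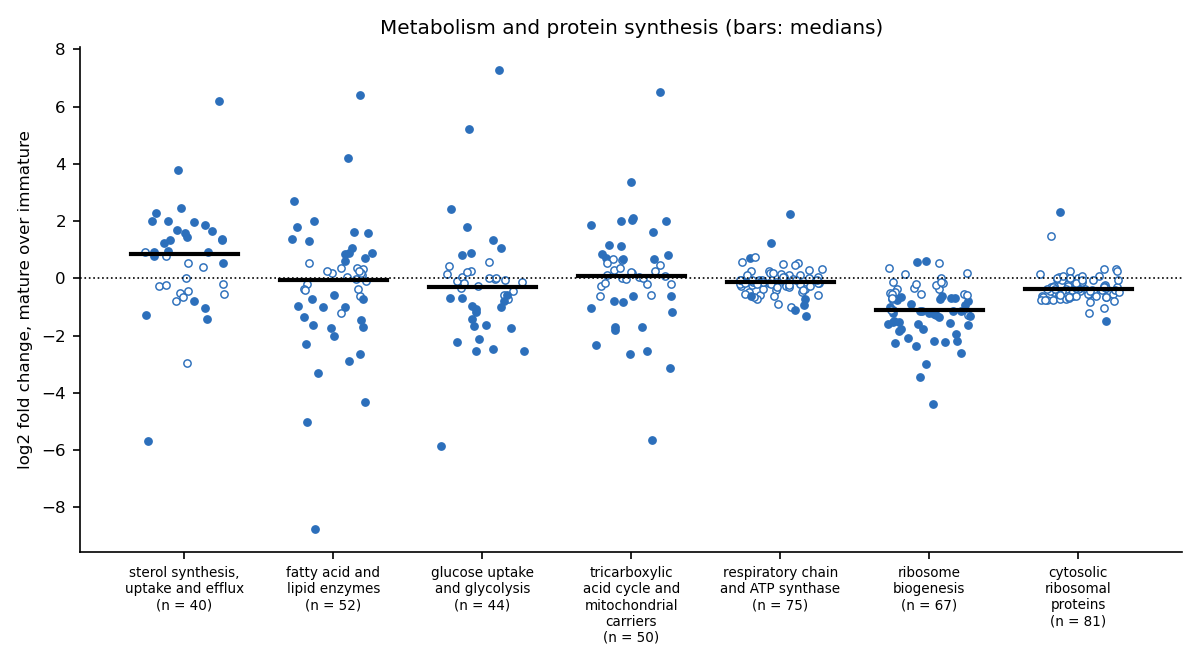
Log2 fold change of every tested member of 7 lists of metabolism and protein synthesis, with black bars at the medians and a dotted line at the median of all genes (0). Filled points passed at an adjusted p under 0.05. Sterol genes lay mostly above 0 (median 0.86) and ribosome biogenesis below (median -1.10), with ribosomal proteins at -0.38 and the respiratory chain at -0.13.

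Ribosome biogenesis fell as a group, with 42 of 67 genes lower and 2 higher (median -1.10), the highest share of lower genes of any functional list apart from uptake receptors. The nucleolar protein Nop58 fell from 56.9 and 49.01 to 6.93 and 9.68 FPKM, dyskerin (Dkc1) fell from 31.4 and 34.7 to 4.83 and 4.804 FPKM and Wdr12 fell from 17.6 and 18.1 to 1.29 and 1.94 FPKM. Fibrillarin (Fbl) fell from 107 and 60.4 to 22.8 and 9.76 FPKM and nucleolin (Ncl) fell from 53.4 and 41.6 to 18.2 and 13.9 FPKM. Of 81 cytosolic ribosomal proteins 1 passed as higher and 1 as lower (median -0.38), which does not show that the others were unchanged, and their summed level was 12206 and 5770.3 FPKM in immature and 4389 and 6709 in mature FL-cDC2s. Immature replicate 1 alone was thus above the other libraries. Without immature replicate 2, 11 ribosomal protein genes were lower and 2 higher, with library size alone 7 were lower, and without immature replicate 1 the median turned to 0.28.

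Myc, a driver of ribosome production, fell from 90.3 and 91.6 to 1.94 and 2.25 FPKM, and Mycl, a relative expressed in dendritic cells, fell from 32.3 and 36.5 to 1.398 and 2.103 FPKM. Of their antagonists, Mxd1 rose from 10.5 and 11.04 to 127 and 106 FPKM and Mxi1 rose from 11.1 and 14.3 to 39.8 and 38.8 FPKM. The log2 changes were -5.01 ± 0.23 and 3.85 ± 0.22 (SE) for Myc and Mxd1. All 30 cell cycle genes listed and 33 of 61 DNA repair genes were lower in the same libraries, and the part of cell division in the fall of ribosome biogenesis was not tested. Genes of the unfolded protein response and of folding in the endoplasmic reticulum fell in 15 of 43 cases (9 without immature replicate 2) against 4 higher, among them Sdf2l1 from 191 and 187 to 42.4 and 57.9 FPKM and the transcription factor Xbp1 from 170.5 and 209 to 51.7 and 53.2 FPKM.

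Other steps of protein synthesis leaned the same way with smaller shares. Of 62 translation factors and tRNA synthetases 16 fell and 4 rose, of 75 mitochondrial ribosomal proteins 11 fell and 3 rose, and of 70 splicing factors 15 fell and 2 rose, so that each share of lower genes was near or under the 24% of all genes. Leaving out 1 library at a time gave 10 to 16, 5 to 13 and 7 to 14 lower genes in these lists, the low ends without mature replicate 1 for translation factors, without that library or immature replicate 1 for mitochondrial ribosomal proteins and without either non-DC library for splicing factors. The valine tRNA synthetase Vars fell from 96.4 and 71.6 to 9.25 and 6.79 FPKM, whereas Wars, the tryptophan enzyme, which interferon is known to induce, rose from 21.2 and 35.8 to 63.03 and 64.01 FPKM. The splicing regulator Mbnl1 fell from 178 and 234 to 25.3 and 24.9 FPKM.

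Chromatin regulators had 22 of 96 higher and 25 lower, shares close to those of all genes. The histone variants H2afy and H2afx fell, H2afy from 1185 and 913 to 124 and 158 FPKM and H2afx from 496 and 447 to 35.5 and 48.7 FPKM, though not all variants did, and the DNA methyltransferases Dnmt1 and Dnmt3a fell from 36.5 and 34.6 to 9.503 and 5.91 FPKM and from 28.7 and 27.96 to 7.86 and 7.12 FPKM. Hdac10, a deacetylase that acts on polyamines, fell from 22.96 and 28.4 to 0.928 and 0.904 FPKM. Upward, the nucleosome-binding protein Hmgn3 rose from 19.9 and 15.8 to 141 and 181 FPKM and the linker histone H1f0 rose from 131 and 158 to 349.8 and 249 FPKM. Dnmt1 and H2afx are also made more in dividing cells.

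Survival genes were exchanged within the BCL2 family. Bcl2 fell from 24.4 and 23.9 to 0.127 and 0.0545 FPKM, a log2 change of -7.40 ± 0.58 (SE) and an adjusted p of 3.69e-05. Among other antiapoptotic members, Bcl2l1 (BCL-XL) rose from 5.56 and 5.86 to 27.96 and 24.2 FPKM and Bcl2a1b rose from 104 and 56.6 to 270.2 and 384 FPKM, with reads that may be shared among the Bcl2a1 copies. Mcl1 did not pass (199 and 159.8 FPKM in immature and 202 and 181 in mature FL-cDC2s, adjusted p = 0.0618). Bcl2l14 rose from 3.22 and 3.17 to 92.2 and 127 FPKM. Inhibitors of death signaling that rose included Birc3, Cflar and Serpinb9, with Birc3 going from 67.9 and 74.4 to 379 and 303 FPKM, Cflar from 9.65 and 9.21 to 49.04 and 54.4 FPKM and the granzyme B inhibitor Serpinb9 from 5.84 and 7.54 to 487 and 511 FPKM.

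The effector caspase Casp6 fell from 112 and 119.5 to 13.1 and 16.7 FPKM. Of stress and arrest genes, Gadd45b rose from 6.82 and 7.82 to 398 and 439 FPKM, Cdkn2b rose from 0.111 and 0.453 to 96.4 and 105 FPKM and Cdkn1a rose from 22.4 and 31.7 to 328 and 327 FPKM, the last 2 being inhibitors of the cell cycle. Of 52 genes of survival and death 25 rose and 12 fell (median 0.76).

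Genes of membrane traffic differed between lists. Of 73 Rab and exocytosis genes, 28 rose and 16 fell (median 0.48), though with library size alone the counts were 20 and 18. The SNARE protein Stx11, needed for cytotoxic granule release, rose from 11.5 and 13.5 to 189 and 177 FPKM, and Rab8b rose from 47.5 and 76.9 to 599 and 401 FPKM, while its relative Rab8a did not pass (308 and 324 FPKM in immature and 336 and 326 in mature FL-cDC2s, adjusted p = 0.0686). Rab20 rose from 8.16 and 8.26 to 44.5 and 68.1 FPKM. Rab19 fell from 25.9 and 25.5 to 0.472 and 0.497 FPKM. The late endosome GTPase Rab7 did not pass (adjusted p = 0.573), and its relative Rab7b fell from a low level, from 6.73 and 8.84 to 0.416 and 0.661 FPKM. Endocytosis and clathrin genes had 9 of 42 higher and 15 lower.

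Ubiquitin and autophagy genes rose in 27 of 62 cases and fell in 11 (median 0.57), though with library size alone the counts were 19 and 16. The autophagy receptor Sqstm1 (p62) rose from 192 and 204 to 639 and 698 FPKM. Ubiquitin ligases Rnf115 rose from 60.3 and 80.3 to 509 and 532 FPKM and Rnf19b rose from 19.7 and 16.9 to 139.9 and 113 FPKM, and Cblb, a brake on immune receptor signaling, rose from 4.74 and 4.11 to 48.1 and 38.4 FPKM. Ube2l6 and Uba7, the enzymes that conjugate and activate ISG15, rose 13.3-fold and 6.001-fold, from 33.9 and 37.1 to 315 and 394 FPKM and from 39.6 and 47.1 to 225 and 166 FPKM.

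Transcription factors outside the NF-κB pathway rose in 43 of 131 cases and fell in 45. Irf8, which is needed for cDC1 development, rose from 15.5 and 21.5 to 412 and 450.1 FPKM, while Irf4, its counterpart in cDC2s, did not pass (20.1 and 16.2 FPKM in immature and 11.96 and 12.6 in mature FL-cDC2s, adjusted p = 0.587). Irf1 rose from 55.3 and 62.6 to 533 and 481 FPKM. Batf3, another factor of cDC1s, rose from 17.4 and 11.9 to 59.4 and 88.1 FPKM, and its relative Batf fell from 30.4 and 19.2 to 4.45 and 3.45 FPKM. Of 10 cDC1 markers listed, 1 was higher and 5 were lower, and of 16 cDC2 markers 2 were higher and 12 lower.

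Among the others, Spib rose from 24.99 and 7.34 to 131 and 100.4 FPKM, Etv3 rose from 27.4 and 25.6 to 240.4 and 157 FPKM and Tcf7, known from T cells, rose from 4.39 and 3.92 to 88.4 and 72.3 FPKM. Etv5 fell from 25.8 and 22.99 to 0.284 and 0.234 FPKM, Fli1 fell from 32.6 and 31.4 to 0.662 and 0.894 FPKM and Mef2c fell from 37.6 and 36.7 to 0.7995 and 0.764 FPKM. The NR4A receptors parted, with Nr4a3 going from 3.29 and 2.299 to 16.6 and 27.1 FPKM and Nr4a1 from 19.8 and 49.8 to 2.88 and 4.08 FPKM. The immediate early gene Egr1 fell from 107 and 193 to 1.58 and 0.818 FPKM and Fos fell from 431 and 891 to 54.5 and 139.6 FPKM. For Nr4a1, Egr1 and Fos immature replicate 2 was above replicate 1. In the fit of all 13 libraries Nr4a1 and Fos did not pass (adjusted p = 0.0576 and 0.229). Bcl11a fell from 28.7 and 19.3 to 1.27 and 1.04 FPKM and Hhex fell from 146 and 125 to 8.02 and 11.4 FPKM.

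Interferon-stimulated genes did not move as a group. Of 58 tested, 19 rose and 19 fell (median 0.14), and with library size alone 14 rose and 23 fell. Of the guanylate-binding proteins, GTPases that attack pathogen vacuoles, Gbp2 rose from 12.7 and 21.2 to 305 and 327 FPKM and Gbp3 rose from 4.68 and 4.601 to 56.7 and 49.5 FPKM. The antiviral GTPase Mx1 rose from 2.06 and 3.45 to 105 and 93.9 FPKM. Of the interferon-induced transmembrane proteins, which block viral entry, Ifitm3 fell from 492 and 309.7 to 13.9 and 19.5 FPKM and Ifitm1 fell from 376 and 239 to 3.24 and 4.49 FPKM. Some members of both families did not pass. Ly6e, an antiviral surface protein, fell from 445 and 367 to 11.6 and 11.3 FPKM, and Ifit3 fell from 26.6 and 20.9 to 6.13 and 4.75 FPKM. Ifit1 did not pass (19.5 and 20.02 FPKM in immature and 21.1 and 17.5 in mature FL-cDC2s, adjusted p = 0.125). Reads of near-identical Gbp, Ifit and Ifitm copies may be shared.

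The promoter windows of 4 of these genes are shown to compare a gene that rose with one that fell. Each window runs from 250 bases before to 50 bases after the RefSeq start, in build GRCm38.p6, on the strand of the gene. Capitals mark the tandem core of interferon regulatory factor sites, searched as GAAANNGAA on both strands and with overlaps joined.
Gbp2 (chr3:142620413-142620712, plus strand, rose): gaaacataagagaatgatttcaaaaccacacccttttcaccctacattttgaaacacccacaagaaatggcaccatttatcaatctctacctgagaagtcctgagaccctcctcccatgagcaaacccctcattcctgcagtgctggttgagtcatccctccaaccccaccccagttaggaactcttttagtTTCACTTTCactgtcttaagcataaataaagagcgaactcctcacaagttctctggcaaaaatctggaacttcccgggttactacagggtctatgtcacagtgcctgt
Gbp3 (chr3:142559794-142560093, plus strand, rose): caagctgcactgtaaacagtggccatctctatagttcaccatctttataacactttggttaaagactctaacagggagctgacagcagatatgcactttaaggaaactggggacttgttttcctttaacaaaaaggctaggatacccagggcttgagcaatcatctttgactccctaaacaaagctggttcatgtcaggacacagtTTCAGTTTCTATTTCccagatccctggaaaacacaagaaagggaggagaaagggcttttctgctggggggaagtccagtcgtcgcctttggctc
Ifit3 (chr19:34583279-34583578, plus strand, fell): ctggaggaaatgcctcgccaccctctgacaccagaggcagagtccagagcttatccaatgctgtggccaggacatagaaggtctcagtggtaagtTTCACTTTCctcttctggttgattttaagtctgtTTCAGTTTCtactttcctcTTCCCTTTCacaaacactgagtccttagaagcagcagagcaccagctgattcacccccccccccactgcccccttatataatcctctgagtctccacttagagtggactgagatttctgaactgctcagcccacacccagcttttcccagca
Ifitm3 (chr7:141010695-141010994, minus strand, fell): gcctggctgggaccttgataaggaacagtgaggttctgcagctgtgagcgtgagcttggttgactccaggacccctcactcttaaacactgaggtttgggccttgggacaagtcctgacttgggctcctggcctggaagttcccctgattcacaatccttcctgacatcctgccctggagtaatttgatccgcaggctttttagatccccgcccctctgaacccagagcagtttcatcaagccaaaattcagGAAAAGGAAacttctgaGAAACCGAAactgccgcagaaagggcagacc

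Gbp2 held 1 match, starting 58 bases before the start, and Gbp3 held 2 overlapping ones. Ifit3 held 3 matches, and Ifitm3 held 2, both after the start. The core was in the windows of 26 of 43 interferon-stimulated genes with a window (60.5%) and in 8.87% of tested genes. It was found in 4 of 11 that rose, 7 of 14 that fell and 15 of 18 that did not pass. A match describes letters in this window and not a bound site.

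Tetraspanins, which organize membrane domains, were exchanged. Tspan3 rose from 80.5 and 96.3 to 1925 and 1978 FPKM, Cd63 rose from 22.96 and 28.2 to 652 and 875 FPKM and Cd81 rose from 1.69 and 2.69 to 118 and 145 FPKM. Cd53, the tetraspanin of leukocytes, fell from 266 and 271 to 10.8 and 8.27 FPKM and Cd37 fell from 78.8 and 60.4 to 18.9 and 24.99 FPKM. Some MS4A genes fell too, Ms4a4c from 234 and 199 to 22.8 and 16.1 FPKM and Ms4a6c from 153 and 103 to 9.04 and 5.78 FPKM. Of 32 genes in both families 17 fell and 7 rose.

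Of the 60 largest changes by the rule for named genes (30 in each direction, with no overlap between groups and a mean of 10 FPKM or more where it was higher), 35 were in none of the lists. Properdin (Cfp), a positive regulator of complement, fell from 802 and 905 to 4.29 and 3.36 FPKM, and Olfm1, an olfactomedin of neurons, fell from 400.1 and 328 to 2.13 and 2.09 FPKM. Wdfy4, needed for cross-presentation by cDC1s, fell from 46.03 and 30.5 to 0.196 and 0.231 FPKM, and the cytokine precursor Il16 fell from 46.4 and 40.4 to 0.287 and 0.213 FPKM. Upward, the membrane-bound protease Mmp25 rose from 0.04202 and 0.259 to 196 and 216 FPKM, and Nudt17 rose from 0.0408 and 0.643 to 355 and 425 FPKM. Arc, an immediate early gene of neurons that forms virus-like capsids, rose from 0.533 and 0.356 to 274 and 176 FPKM. Of the apolipoprotein L genes, Apol10b went from 0.0729 and 0.0532 to 50.6 and 55.1 FPKM and Apol7a had 0 reads in both immature libraries and 13.4 and 13.1 FPKM in the mature ones.

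Some of the most abundant transcripts changed hands. Tmem123, the surface protein porimin (Entrez gene 71929, chromosome 9 from 7764077 to 7794333), rose from 226 and 343 to 10362 and 8148 FPKM, a 43.1-fold rise that made it the third most abundant transcript of mature FL-cDC2s among those that changed at least 2-fold. Syngr2, a vesicle protein, rose from 1094 and 1099 to 3717 and 4504 FPKM, and Lsp1, an actin-binding protein of leukocytes, rose 2.27-fold, from 1889.8 and 1442 to 2544 and 3084 FPKM. Laptm5, a lysosomal protein of blood cells, fell from 1539 and 1327 to 368 and 354 FPKM, and plastin 2 (Lcp1) fell from 948 and 1236 to 386 and 299.7 FPKM.

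The change was set against that of FL-cDC1s, the other cDC type of the same culture, of which 2 immature libraries and 1 mature library were sequenced. Both changes were estimated in 1 fit over the 13 libraries, where the lone mature FL-cDC1 library was taken to spread as much as the replicated subsets do. Of 14936 genes tested, the change in FL-cDC2s was more upward in 1.03% (154 genes) and more downward in 5% (747 genes). Without mature FL-cDC2 replicate 2 these were 64 and 404 genes, and with DESeq2 589 and 1356. On simulated counts this test missed most of the smaller differences and its share of false calls was above the threshold, so the counts are rough. Irf8 is a case of the first kind. In FL-cDC1s it was at 1344 ± 319 FPKM (SD, n = 2) in immature and 793 in mature cells, and the difference of the log2 changes was 5.61 ± 0.55 (SE, adjusted p = 5.48e-04). Cd81 was at 122 ± 4.72 and 239 FPKM in FL-cDC1s, a difference of 5.38 ± 0.50 (adjusted p = 4.34e-04). For both genes the immature FL-cDC2s stood apart by their low levels.

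Of the genes more downward in FL-cDC2s, Clec10a was near 0 in FL-cDC1s at both stages (0.255 ± 0.0604 and 0.4597 FPKM), with a difference of -10.67 ± 1.01 (adjusted p = 4.37e-04). Apoe, a macrophage gene, was at 5.87 ± 0.0342 and 105 FPKM in FL-cDC1s against 10.6 and 131 in immature and 1.18 and 0.881 in mature FL-cDC2s. Lpl, lipoprotein lipase, was at 0.0139 ± 0.00928 and 0.693 FPKM in FL-cDC1s and fell from 7.42 and 15.2 to 0.393 and 0.463 FPKM in FL-cDC2s. Several of these genes (Apoe, Mmp12, Cx3cr1, Hp and Lpl) were high in non-DCs, at 3415 ± 952, 1574 ± 55.9, 126 ± 50.6, 927 ± 242 and 342 ± 21.1 FPKM, and the part of such cells in the libraries was not tested.

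**Figure D5:**
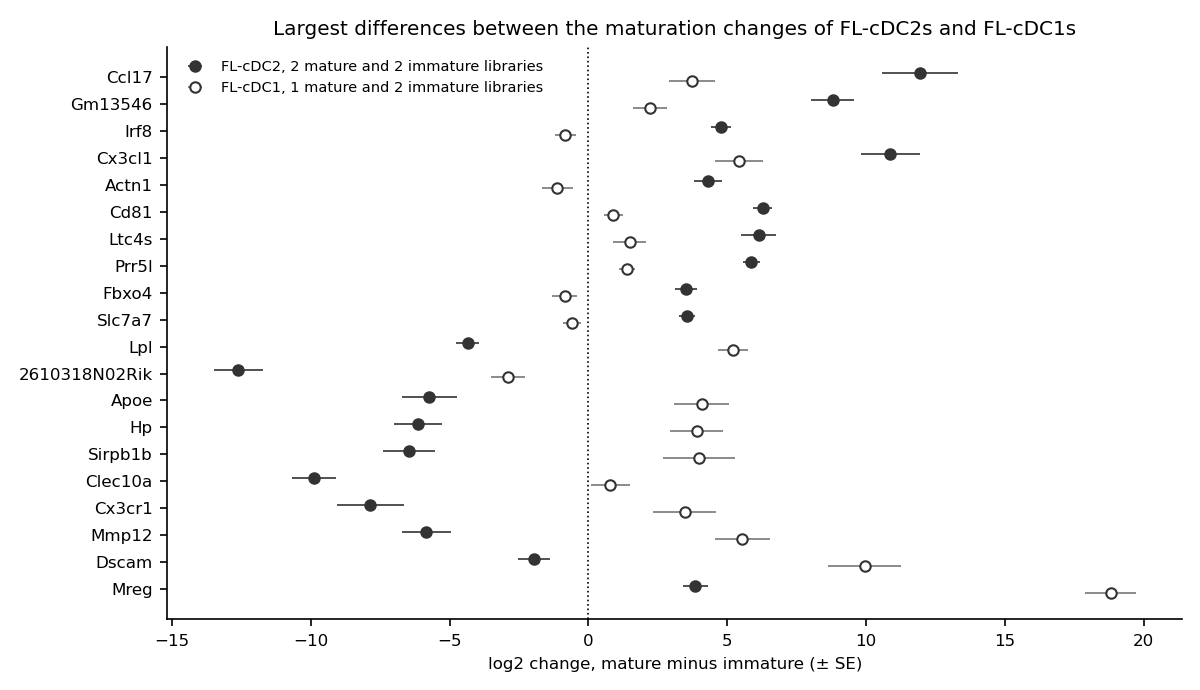
Log2 change on maturation in FL-cDC2s (filled, 2 against 2 libraries) and FL-cDC1s (open, 1 against 2 libraries), ± SE, for the 10 genes with the largest difference in each direction, from the fit of all 13 libraries. In 7 of the 10 genes with a more downward change both FL-cDC1 levels were under 3 FPKM, and the points of groups without reads (Mreg and Dscam in immature FL-cDC1s, Ccl17 in immature and 2610318N02Rik in mature FL-cDC2s) depend on the prior count.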

How the data were processed

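RNA of cells sorted from FLT3L and GM-CSF bone marrow cultures was made into libraries with a SMART-Seq v4 low-input kit, which amplifies cDNA by PCR and adds no molecular identifiers. Tools listed in the processing notes of the submitters are STAR 2.6.0c, StringTie 1.3.4d, HTSeq, Trimmomatic and bcl2fastq 2.20.0, with the build mm10, whereas the study's methods name HISAT as the aligner, and which of the aligners made the tables could not be settled. The deposited tables give, per gene and library, a raw read count without normalization by the authors, and FPKM, which the authors computed with StringTie as a level relative to gene length and library size. The counting program's role and its strand setting are not stated there, so reads of overlapping or near-identical genes may be shared. All 26 columns of single libraries were mapped by the library numbers in the sample descriptions and used.

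Counts of the 6 libraries of the cDC2 table (non-DC, immature and mature FL-cDC2s) were fitted with edgeR 4.0.16 in R 4.3.3 (filterByExpr, TMM, quasi-likelihood test, Benjamini-Hochberg over all genes tested, threshold 0.05), so that the non-DC libraries share the estimate of spread. The coefficient of variation estimated by edgeR was lower within the non-DC pair (16.6%) than within the immature (25.5%) and mature (24.5%) FL-cDC2 pairs. A fit of the 4 FL-cDC2 libraries alone gave 2673 genes higher and 2944 lower. Standard errors were derived from the F statistic of each log2 fold change. DESeq2 1.42.0 and limma 3.58.1 (log2 of FPKM with a pseudocount of 1 or 0.1) were alternatives. The scripts were tested on simulated counts. Where a group had 0 reads, the fold is a lower bound from reads per library total against 3 reads per library. The fit of all 13 libraries tested the difference from FL-cDC1s.

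The genes named were, within each list or family, those past the test with the largest changes in each direction at a mean of 10 FPKM or more in the higher group and with no overlap, the most abundant members, and partners that did not pass. To these were added the 30 largest changes each way, the 15 most abundant changed genes per group, the 10 largest differences from FL-cDC1s each way and the sort markers. Genes below 10 FPKM or with overlap were named after their values were seen. The comparison and the 45 functional lists were chosen with earlier results of these data known. Positions and promoter windows are from RefSeq GRCm38.p6 by gene ID or symbol, and 10553 of the 13242 genes tested had a window. Some genes and 1 list are not reported here.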

Additional observations from a re-analysis of the deposited data

Results flagged for a closer look

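The maturation change of FL-cDC2s was set against that of FL-cDC1s by a test of the difference itself, and the 20 largest differences by the rule for named genes are given here as the log2 change in FL-cDC2s minus that in FL-cDC1s (edgeR, all 13 libraries, adjusted p at most 0.0488, that of Ccl17). The fit has a single mature FL-cDC1 library, which cannot show its own spread.

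Of the genes with a more upward change in FL-cDC2s, the chemokine Ccl17 differed by 8.22 and Cx3cl1 by 5.44, both from low levels. Neither passed without immature FL-cDC2 replicate 1 (adjusted p = 0.119 and 0.0738), and each was lost without other libraries too. Irf8 differed by 5.61, the tetraspanin Cd81 by 5.38 and the leukotriene enzyme Ltc4s by 4.65. Actn1, the actin crosslinker α-actinin 1, differed by 5.43, as it rose from 1.67 and 1.003 to 22.9 and 17.2 FPKM in FL-cDC2s and was at 47.7 ± 29.4 FPKM (SD, n = 2) in immature and 22.1 in mature FL-cDC1s. Prr5l, a regulator of mTORC2, differed by 4.48, the ubiquitin ligase subunit Fbxo4 by 4.37, the amino acid transporter subunit Slc7a7 by 4.15 and the unnamed gene Gm13546 by 6.58. The level of Slc7a7 from 2.19 and 1.78 to 17.4 and 20.05 FPKM in FL-cDC2s stood beside 4.03 ± 0.226 and 2.84 FPKM in FL-cDC1s.

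Of the genes with a more downward change, Mreg, which encodes melanoregulin, differed by -14.96 although it rose from 30.7 and 20.3 to 317 and 246 FPKM in FL-cDC2s, with 0 reads in both immature FL-cDC1 libraries and 374 FPKM in the mature one. Dscam differed by -11.91 and was likewise without reads in immature FL-cDC1s, with 0.269 FPKM in mature ones, so both differences depend on the prior count and are no measure of size. The gene 2610318N02Rik, which has no reads in mature FL-cDC2s, differed by -9.73. The macrophage elastase Mmp12 differed by -11.38, Cx3cr1 by -11.31, Clec10a by -10.67, Sirpb1b by -10.45, haptoglobin (Hp) by -10.03, Apoe by -9.82 and Lpl by -9.56. Genes abundant in non-DCs are among these, and the part of such cells was not tested.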

How the results depend on the processing

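Scaling, filter, test, libraries in the fit, pseudocount and pairing were varied, with DESeq2 and limma changing test, scaling and filter together. Of the 316 named genes that passed, 296 passed under every alternative and none changed direction. Many of these genes were named for large changes in the main fit, so this share does not carry over to all genes tested. Of the named genes lost, 14 were lost in the fit of all 13 libraries and 7 with library size alone. The 14 were Fcer1g, Fos, H2-Ab1, Hes6, Nr4a1, Psmb7, Psmb9, Psmb10, Slc2a6, Tap1, Tap2, Tmsb4x, Tuba1b and Tubb5. The 7 were Psmb7, Psmb9, Psmb10, Tap1, Tap2, Slc2a6 and Ifngr2. Of the 30 that had not passed, 8 passed with DESeq2 and 9 with limma on log2(FPKM + 1). With library size alone 8 of them passed, namely Calr, Cd74, Eno1, H2-Aa, Irf4, Lamp2, Pdia3 and Tgfbr1. The genes higher and lower numbered 3017 and 3138 with RLE scaling, 2791 and 2974 without a filter, 3255 and 3324 with DESeq2 and 2175 and 2569 in the fit of all 13 libraries. With limma on log2(FPKM + 1) 1821 genes were higher, 445 of them at least 4-fold, and 1002 were at least 4-fold lower, while a pseudocount of 0.1 gave 1783 higher and 721 at least 4-fold higher. Leaving out 1 library at a time gave 2222 to 2630 genes higher and 2604 to 2848 lower, and with the 4-fold rule 1066 to 1324 and 1486 to 1583. The majority of higher or lower members turned in 5 lists with library size alone.

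For the difference from FL-cDC1s, the genes more upward numbered 589 with DESeq2, 97 with library size alone and 71 in the fit of the 7 FL-BM cDC libraries, and those more downward 1356 with DESeq2 and 1143 with library size alone. Leaving out 1 library at a time gave 64 to 262 and 404 to 760. Of the 20 named differences 2 did not pass in some of these fits. The cause of these shifts was not tested.

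The replicate numbers were also entered as a replicate block, which gave 2494 genes higher and 2734 lower. Deviations of same-numbered libraries from their group means correlated at 0.0693 and -0.0876 for non-DCs with immature and mature FL-cDC2s and at -0.128 between the latter. With 2 libraries per group these values cannot tell whether same-numbered libraries share a culture or an animal, so the pairing remains unknown. A crossed replicate block of the FL-cDC2 libraries, chosen after seeing the data, gave 3123 and 3278. A count of 0 allows up to 3 reads per library, which covers counting error only, since reads of this amplified library kit are not independent molecules.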
